A study of Mus musculus with 12 samples.

Results

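The genes described here encode 10 receptors with which macrophages take up particles, dying cells and antibody-coated material: Msr1, Marco, Mrc1, Mertk, Axl, Stab1, Fcgr1, Fcgr2b, Fcgr3 and Fcgr4. They were picked by gene symbol, not by a measured value, from the 54532 genes of a count table of mouse bone marrow-derived macrophages. All 10 were among the 13800 genes that passed a filter on low counts. The table holds 12 RNA sequencing libraries in 4 groups of 3, named here by genotype, treatment and replicate number. The tested genotype was Itga9-Lyz2-cKO (cKO) and the genotype it was set against Itga9-Lyz2-cHet (cHet), and either was stimulated for 2 hours with the agent labelled Pg at a multiplicity of infection of 1:20 or left as control. The groups are thus cKO with Pg, cKO control, cHet with Pg and cHet control. All groups came from 8-week-old male mice, and all cells were grown from marrow in 50 ng/mL M-CSF, under which marrow precursors become macrophages. The names point to an allele of Itga9, the alpha9 integrin gene, that is altered by a recombinase driven from the myeloid gene Lyz2, so cells of the control genotype carry a targeted allele as well. The labels do not say which exons are targeted or whether replicate libraries stem from separate animals or cultures. The p-values therefore rest on variation among libraries, part or all of which may be technical.

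Uptake receptors fall into families that recognise different cargo. Msr1 and Marco encode class A scavenger receptors, which bind modified lipoproteins and bacterial surfaces, Mrc1 encodes the mannose receptor, an endocytic lectin, and Stab1 encodes stabilin-1, which clears matrix fragments and modified proteins. Mertk and Axl are receptor tyrosine kinases that hold apoptotic cells through bridging proteins such as Gas6, the step called efferocytosis. Both also damp inflammatory signalling. The Fc gamma receptors bind the constant part of IgG: Fcgr1, Fcgr3 and Fcgr4 encode activating receptors that signal through the shared gamma chain encoded by Fcer1g, and Fcgr2b encodes the inhibitory one.

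Promoter sequences are shown for 4 of the genes because the Pg response is the main comparison: Mrc1 and Fcgr2b, which were called higher with Pg in both genotypes, and Marco and Fcgr3, the only members whose window holds an NF-kB motif. RefSeq (GRCm38.p6) gave a window of 300 bases, 250 before and 50 after the transcription start, for 9 of the 10 receptors, all but Msr1. The motifs searched on both strands were AP-1 (TGANTCA), NF-kB (GGG, any 2 bases, then TTTCC), PU.1 (GAGGAAGT) and the E-box (CACGTG), and capitals mark a match.
Mrc1: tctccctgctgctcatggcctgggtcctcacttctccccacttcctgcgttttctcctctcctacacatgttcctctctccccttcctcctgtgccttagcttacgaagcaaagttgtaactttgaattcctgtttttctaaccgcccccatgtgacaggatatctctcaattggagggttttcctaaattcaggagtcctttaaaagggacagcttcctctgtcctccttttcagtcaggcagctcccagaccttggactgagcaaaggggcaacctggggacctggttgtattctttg
Fcgr2b: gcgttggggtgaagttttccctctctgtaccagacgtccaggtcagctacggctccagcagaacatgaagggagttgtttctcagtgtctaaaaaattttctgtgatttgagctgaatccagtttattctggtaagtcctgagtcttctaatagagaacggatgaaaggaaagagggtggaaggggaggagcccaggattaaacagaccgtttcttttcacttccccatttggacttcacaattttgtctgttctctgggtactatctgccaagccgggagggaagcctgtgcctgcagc
Fcgr3: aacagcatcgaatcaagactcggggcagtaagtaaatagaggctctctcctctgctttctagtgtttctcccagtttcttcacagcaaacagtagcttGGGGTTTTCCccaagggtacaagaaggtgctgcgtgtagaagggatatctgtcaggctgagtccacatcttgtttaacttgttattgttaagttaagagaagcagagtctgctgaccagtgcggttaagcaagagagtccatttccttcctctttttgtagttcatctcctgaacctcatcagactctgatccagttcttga
Marco: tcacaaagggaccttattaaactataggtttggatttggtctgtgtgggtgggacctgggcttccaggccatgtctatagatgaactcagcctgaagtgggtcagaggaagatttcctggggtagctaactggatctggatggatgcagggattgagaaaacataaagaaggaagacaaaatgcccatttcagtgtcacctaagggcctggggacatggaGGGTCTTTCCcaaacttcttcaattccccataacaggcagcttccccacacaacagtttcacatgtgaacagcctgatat
These windows are chr2:14229164-14229463 on the plus strand for Mrc1, and on the minus strand chr1:170976022-170976321 for Fcgr2b, chr1:171059354-171059653 for Fcgr3 and chr1:120504975-120505274 for Marco. The NF-kB motif began at base -152 from the start in Fcgr3 and at base -30 in Marco, and 1.61% of the 32544 mouse promoters of the same length held it. A second RefSeq start of Fcgr3, not shown, placed the same match at base -161. The windows of Fcgr3 and Fcgr2b lie inside the gene bounds given below, so these genes have other annotated starts further upstream. Fcgr4 held the PU.1 motif on the reverse strand from base -24, as did 3.11% of promoters on either strand. The other windows, those of Mrc1, Fcgr2b, Mertk, Axl, Stab1 and Fcgr1, held none of the 4 motifs, of which AP-1 stood in 7.79% and the E-box in 7.17% of all promoters. A match is a run of letters and no evidence of binding, and its absence from a window says nothing about the factor.

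Among the Fc gamma receptors, Fcgr2b and Fcgr3 share sequence, which bears on how their reads could be counted. Their longest GENCODE protein-coding transcripts, of 3544 and 1347 bases, were 96.5% identical over 509 aligned bases, and the following 129 bases, from base 402 of the Fcgr2b and base 313 of the Fcgr3 transcript, are the longest run without a difference.
Fcgr2b and Fcgr3: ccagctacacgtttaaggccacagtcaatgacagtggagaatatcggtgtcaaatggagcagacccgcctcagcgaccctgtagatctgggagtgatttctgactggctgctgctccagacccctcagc
Reads that lie wholly in this run cannot be assigned to either gene by sequence, so the values of these receptors are uncertain by that share. Every other pair of Fc gamma receptor transcripts shared a run of at most 14 bases. Exons of Stab1 overlapped 112 bases of Nt5dc2 on the opposite strand and exons of Fcgr2b overlapped 155 bases of an antisense gene with 90 counts in all, against 79525 counts for Fcgr2b. Nt5dc2 had 15519 counts in all, against 659199 for Stab1.

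In mm10 coordinates, Fcgr2b (ENSMUSG00000026656, 170958617 to 170976547, minus strand), Fcgr4 (ENSMUSG00000059089, 171018920 to 171029761, plus strand) and Fcgr3 (ENSMUSG00000059498, 171051174 to 171064935, minus strand) lie close together on chromosome 1, which also holds Marco (ENSMUSG00000026390, 120474538 to 120505024, minus strand). Chromosome 2 holds Mrc1 (ENSMUSG00000026712, 14229392 to 14332057) and Mertk (ENSMUSG00000014361, 128698956 to 128802894) on the plus strand. The other genes lie on minus strands: Msr1 (ENSMUSG00000025044) on chromosome 8 at 39581685 to 39642673, Axl (ENSMUSG00000002602) on chromosome 7 at 25757273 to 25788705, Stab1 (ENSMUSG00000042286) on chromosome 14 at 31139013 to 31168641 and Fcgr1 (ENSMUSG00000015947) on chromosome 3 at 96282909 to 96293969. The table lists all 10 as protein-coding.

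Library totals lay between 14527674 and 16793803 counts. The targeted gene Itga9 was lower in every cKO library (5.98 to 13.6 CPM, normalised counts on TMM-scaled library sizes) than in every cHet library (17.9 to 34.0 CPM) with a log2 difference over both treatments of -1.46 ± 0.26 (standard error, adjusted p 0.0118 from the quasi-likelihood test of edgeR). Lyz2 was lower in cKO too, with a log2 difference of -0.97 ± 0.06 (adjusted p 6.44e-08). All 8 inflammatory genes listed as a check of the Pg label, among them Tnf, Il6 and Cxcl1, were higher with Pg in both genotypes. The 12 macrophage identity markers, such as Adgre1 and Csf1r, summed to between 14200 and 18040 CPM and none was at 0 in any group. The 10 stromal markers, such as Col1a1 and Col3a1, summed to between 2.18 and 5.37 CPM in the cKO libraries and between 29.7 and 38.4 CPM in the cHet libraries, so they move with genotype. Lum was at 0 in all groups, and the part of this trace of stromal RNA in the genotype differences below was not tested.

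One library in each group stood apart from its fellows, and it is given here before the results because the receptors take part in it. Itgax, which encodes the CD11c integrin chain, and Cd36, a class B scavenger receptor, marked the split. Itgax lay between 103 and 137 CPM in the 6 libraries cKO Pg 1 and 2, cKO control 1, cHet Pg 2 and 3 and cHet control 1, and between 36.2 and 59.3 CPM in the other 6. Cd36 was between 954 and 1237 CPM in the first set and between 336 and 584.5 CPM in the second. The summed osteoclast markers, mostly Atp6v0d2 and Acp5, followed it within groups. They were 358.9 and 379 against 192.5 CPM in cKO Pg and 297 against 112 and 118 CPM in cKO control. In cHet they were 395 and 404 against 224 CPM with Pg, and 284 against 109.9 and 115 CPM in controls. Other lists differed by Itgax level as well. Summed neutrophil markers were higher at high level in every group but cKO Pg. Summed macrophage identity markers were lower at high level in every group but cHet control, and monocyte markers in every group but cHet Pg. The part of cell content in the split was not tested. The targeted gene followed the Itgax split too. Itga9 reached 11.5 to 13.6 CPM in the cKO libraries of high Itgax level and 5.98 to 7.84 CPM in those of low level. The library on its own was the low one in each Pg group and the high one in each control group, so Pg groups hold more high-Itgax libraries than control groups, while cKO and cHet groups of the same treatment hold equal numbers. For that reason many of the differences below are also given within libraries of like Itgax level, as a description with no test, or from a fit with 1 surrogate variable (an estimate of unlabelled variation, made from the same counts) as a covariate. These additions were chosen after seeing the data, and p-values from the fit with the surrogate variable are too small, since the variable was estimated from the counts it then explains. Comparisons at like Itgax level set 1 or 2 libraries against 1 or 2, so a lack of overlap there weighs little. How many of all tested genes show it was not determined.

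**Figure D1:**
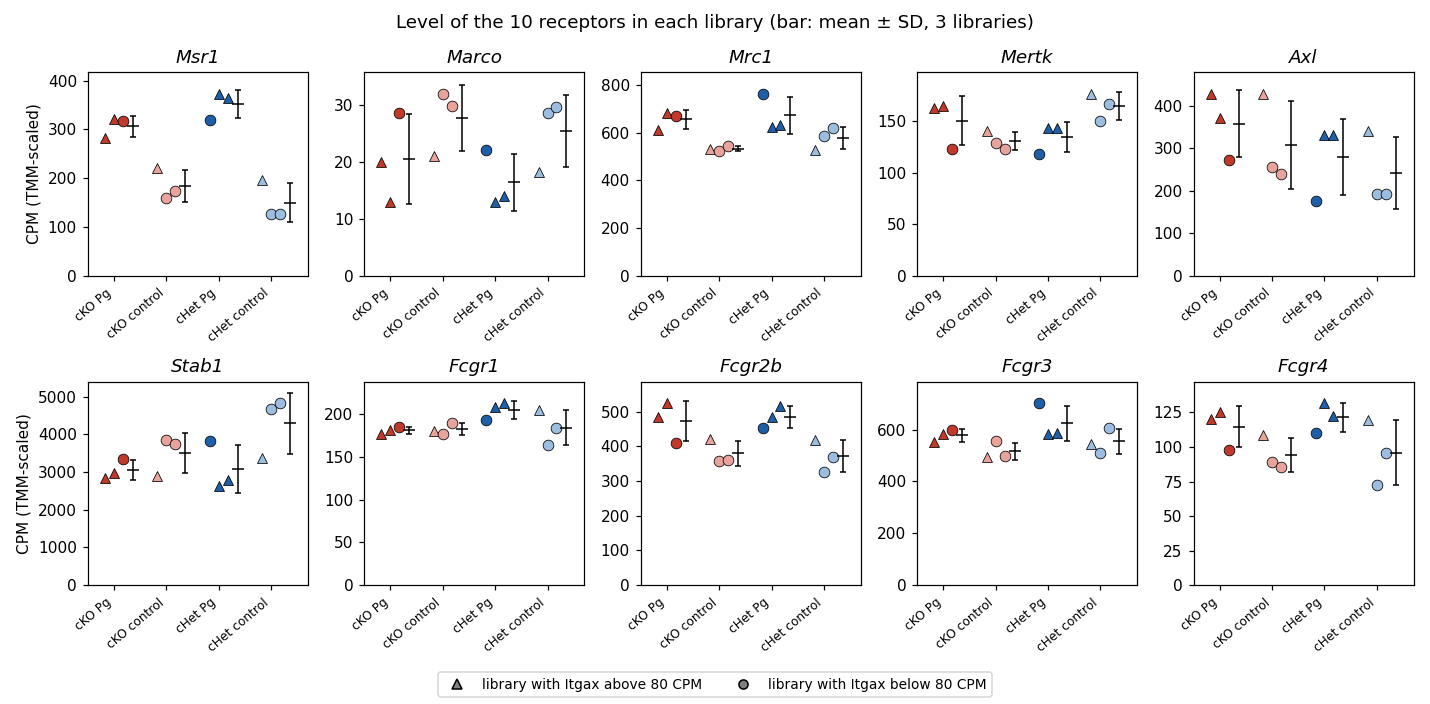
CPM of each receptor (y axis, from 0, own scale per panel) in the 12 libraries by group, with triangles for libraries with Itgax above 80 CPM, circles for those below it, and a bar for the mean ± SD of 3 libraries. Every Pg library lies above every control library of its genotype for Msr1 and Mrc1, and triangles lie above circles in all 4 groups for Axl.

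Per kilobase of the deposited gene length, Fcgr3 and Stab1 were the most abundant of the receptors in all groups. That length can exceed a transcript, at 5790 bases for Fcgr2b, whose longest GENCODE protein-coding transcript has 3544 bases. For Fcgr3 these were 1736 and 1347 bases. The order of the receptors given here thus depends on the length used. In cKO Pg libraries Fcgr3 averaged 333 CPM per kb (317 to 346) and Stab1 297 CPM per kb (277 to 326), and in cKO controls they averaged 297 (286 to 319) and 340.4 CPM per kb (281 to 375). In cHet Pg libraries the same levels were 359.5 (337 to 404) and 299 CPM per kb (256 to 371), and in cHet controls 319.5 (294.5 to 350.2) and 417 CPM per kb (327 to 469). Their ranges overlapped within each group, so the order between them was not separated. Mrc1 came next in every group, from 83.6 CPM per kb in cKO controls to 106 CPM per kb in cHet Pg libraries, and its range overlapped that of Fcgr4 in each. Fcgr2b, Fcgr1 and Axl followed, with group means between 48.0 and 83.6 CPM per kb and overlaps with neighbours in most groups. Msr1, with group means of 48.4 in cKO Pg, 29.0 in cKO control, 55.6 in cHet Pg and 23.6 CPM per kb in cHet control, lay above Mertk (34.7, 30.1, 31.1 and 38.0 CPM per kb in the same groups) in both Pg groups, below it in cHet controls, and overlapped it in cKO controls. Marco was the lowest receptor in every group, at means of 8.5 to 14.4 CPM per kb.

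The first comparison asked which uptake receptors responded to 2 hours of Pg. Msr1 showed the largest response of the 10, 1.67-fold higher with Pg in cKO and 2.36-fold higher in cHet, and Mrc1 and Fcgr2b were higher by smaller amounts in both genotypes. In each genotype these 3 of the 10 receptors were called higher and none was called lower, at an adjusted p under 0.05 from the quasi-likelihood test of edgeR. Among all tested genes 16.9% were called higher and 34% called in either direction in cKO, and 18% and 36.1% in cHet, so the receptors' share is near that of other genes. The median log2 fold change over the 10 receptors was 0.21 in cKO and 0.19 in cHet, against -0.0043 and -0.0068 over all tested genes. With scaling by library size alone the median of all genes moved to -0.25 in both genotypes, and the called genes split into 1229 higher and 5343 lower in cKO and 1288 and 5438 in cHet, against 2328 and 2359 in cKO and 2490 and 2490 in cHet with TMM, so the changes below are relative to other genes. Osteoclast markers, which follow the Itgax split, had 3 of 5 tested genes higher with Pg in either genotype. Dendritic cell markers, which include Itgax itself, had 3 of 9 higher in cKO and 2 of 9 in cHet. Without Itgax, their sum at high against low Itgax level was 195.7 and 171.4 against 147.6 CPM in cKO Pg. In cKO controls it was 132.3 against 133.3 and 132 CPM. For cHet it was 125.1 and 130 against 89.04 CPM with Pg, and 93.89 against 83.17 and 88.78 CPM in controls. The high-Itgax libraries thus had the higher sum in every group but cKO control. Macrophage identity markers had 5 of 12 higher in cKO and 6 of 12 in cHet, and the part of these lists in the receptors' values was not tested.

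Msr1, the class A scavenger receptor, had 282, 322 and 317 CPM in the cKO Pg libraries, against 221, 158.5 and 173 CPM in the cKO controls. It had 320.2, 373.5 and 365 CPM in the cHet Pg libraries, against 195.5, 127 and 127 CPM in the cHet controls. All Pg libraries lay above all control libraries of their genotype, and the control library with high Itgax was the highest of its group in both genotypes. The log2 fold change was 0.74 ± 0.18 in cKO (adjusted p 0.00911) and 1.24 ± 0.18 in cHet (adjusted p 0.000408), and the call held when any 1 library was left out. Within libraries of like Itgax level the log2 ratio of Pg to control means was 0.45 and 0.94 in cKO and 0.92 and 1.34 in cHet at high and low level.

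Mrc1, the mannose receptor, had 611, 683 and 671 CPM in the cKO Pg libraries, against 529, 524 and 545 CPM in the cKO controls. It had 763, 624 and 632 CPM in the cHet Pg libraries, against 526, 587 and 619.6 CPM in the cHet controls. The libraries did not overlap in either genotype, but the lowest cHet Pg library stood only a few CPM above the highest cHet control. The log2 fold change was 0.30 ± 0.08 in cKO (adjusted p 0.00811) and 0.22 ± 0.08 in cHet (adjusted p 0.0415). In cHet, leaving out control 1 (0.16, adjusted p 0.128), control 2 (0.23, 0.0758) or Pg 1 (0.12, 0.244) ended the call, while within libraries of like Itgax level the log2 ratio was 0.29 and 0.33 in cKO and 0.25 and 0.34 in cHet at high and low level. With scaling by library size alone the value was 0.05 (adjusted p 0.603) in cKO and turned to -0.03 (adjusted p 0.806) in cHet.

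Fcgr2b, the inhibitory IgG receptor, had 484, 523.5 and 409 CPM in the cKO Pg libraries, against 419.6, 357 and 361 CPM in the cKO controls. It had 452, 485 and 515 CPM in the cHet Pg libraries, against 418, 326 and 370.2 CPM in the cHet controls. The cHet groups did not overlap, while cKO Pg 3, the low-Itgax library of its group, lay below cKO control 1, the high-Itgax one. The log2 fold change was 0.32 ± 0.10 in cKO (adjusted p 0.0276) and 0.38 ± 0.10 in cHet (adjusted p 0.00932). In cKO the call was lost without any 1 of control 2, control 3, Pg 1 and Pg 2, with values of 0.24 to 0.30 and adjusted p of 0.0804 to 0.123. Within libraries of like Itgax level every Pg library was above every control, with log2 ratios of 0.19 to 0.38 over the 4 comparisons, whereas library-size scaling gave 0.07 in cKO (adjusted p 0.574) and 0.14 in cHet (0.265).

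**Figure D2:**
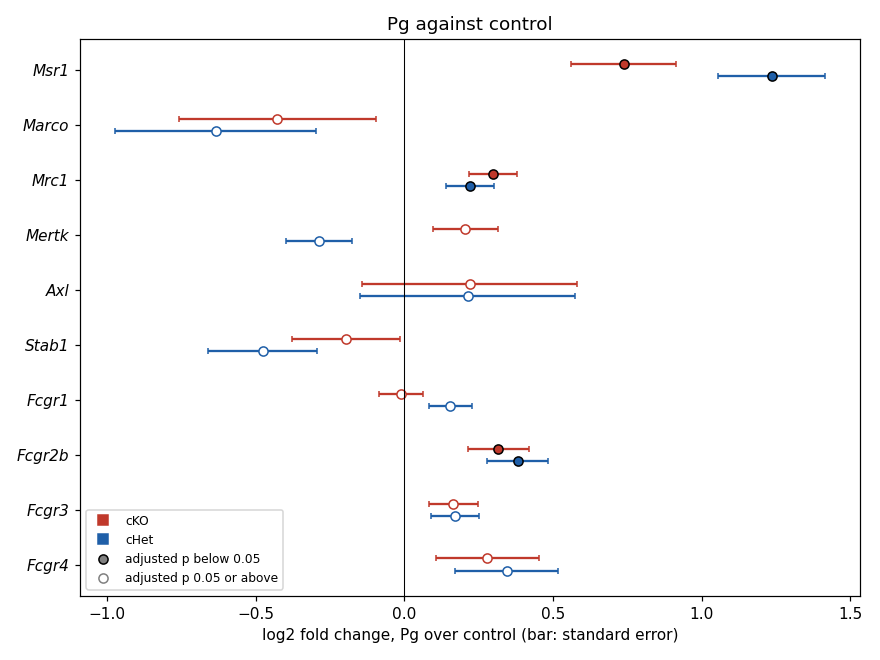
Log2 fold change of Pg over control (x axis) for each receptor (y axis) in cKO (red) and cHet (blue), with the standard error as bar and filled points where the adjusted p was under 0.05. Msr1, Mrc1 and Fcgr2b are filled in both genotypes, and the points of Mertk lie on opposite sides of 0.

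The activating Fc receptors gave no call. Fcgr3 had 551, 585 and 600 CPM in the cKO Pg libraries, against 496, 554 and 498 CPM in the cKO controls, and 701, 584 and 586 CPM in the cHet Pg libraries, against 545, 511 and 608 CPM in the cHet controls. Its log2 fold change was 0.16 ± 0.08 in cKO (adjusted p 0.135) and 0.17 ± 0.08 in cHet (adjusted p 0.118), and 1 control library reached into the range of the Pg libraries in each genotype. Fcgr4, the receptor related to human FCGR3A, had 121, 126 and 97.8 CPM in the cKO Pg libraries, against 109, 89.3 and 85.5 CPM in the cKO controls, and 110.4, 132 and 122.5 CPM in the cHet Pg libraries, against 119, 72.3 and 95.5 CPM in the cHet controls. Its log2 fold change was 0.28 ± 0.17 in cKO (adjusted p 0.26) and 0.34 ± 0.17 in cHet (adjusted p 0.158), with overlap in both genotypes. Within libraries of like Itgax level the Pg libraries were above the controls in all 4 comparisons for both genes, each of only 2 libraries against 1. The log2 ratios were 0.10 to 0.33 for Fcgr3 and 0.09 to 0.40 for Fcgr4. Fcgr1, the high-affinity receptor, had 177, 181 and 185 CPM in the cKO Pg libraries against 180.4, 177 and 190 CPM in the cKO controls, a log2 fold change of -0.01 ± 0.07 (adjusted p 0.922). In cHet it had 193.5, 209 and 213 CPM with Pg against 204.5, 164 and 184 CPM in controls, 0.15 ± 0.07 (adjusted p 0.112), and the groups overlapped.

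The efferocytosis kinases did not pass the test in either genotype. Mertk had 163, 165 and 123 CPM in the cKO Pg libraries, against 140.3, 128 and 123 CPM in the cKO controls, a log2 fold change of 0.21 ± 0.11 (adjusted p 0.178). It had 118, 143 and 143 CPM in the cHet Pg libraries, against 176.5, 150.3 and 167 CPM in the cHet controls, -0.29 ± 0.11 (adjusted p 0.057). In cHet every Pg library lay below every control, the single receptor with that pattern, and in cKO the low-Itgax Pg library lay among the controls. With Msr1, Mrc1 and Fcgr2b this made 4 of 10 receptors without overlap in cHet, where 47.3% of tested genes showed none, and Msr1 and Mrc1 made 2 of 10 in cKO, where 45.1% did. Mertk in cHet passed the threshold under several alternatives, among them a fit of the cHet groups alone (-0.29, adjusted p 0.0245), library-size scaling (-0.53, 0.00145), no filter on low counts (-0.31, 0.00017), the surrogate variable (-0.36, 1.12e-05) and leaving out cHet control 2 (-0.35, 0.0455). It did not pass with DESeq2 (-0.28, 0.0613) or without the 4 libraries that stood apart (-0.15, 0.0515), and leaving out cHet control 1 gave -0.22 (0.214) and cHet Pg 1 -0.20 (0.191). Axl had 429, 372 and 274 CPM in the cKO Pg libraries, against 428, 255 and 240.2 CPM in the cKO controls, and 176, 332 and 332 CPM in the cHet Pg libraries, against 340.1, 192 and 193 CPM in the cHet controls. Its libraries overlapped widely, with log2 fold changes of 0.22 ± 0.36 in cKO (adjusted p 0.698) and 0.21 ± 0.36 in cHet (adjusted p 0.7), and the surrogate variable gave 0.14 ± 0.06 in cKO and -0.01 ± 0.06 in cHet. At like Itgax level its log2 ratios were -0.09 and 0.14 in cKO and -0.04 and -0.13 in cHet, at high and low level.

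The remaining scavenger receptors had lower means with Pg, without passing the test. Marco had 20.0, 12.9 and 28.6 CPM in the cKO Pg libraries, against 21.01, 31.96 and 29.9 CPM in the cKO controls, and 22.1, 12.95 and 14 CPM in the cHet Pg libraries, against 18.2, 28.5 and 29.6 CPM in the cHet controls. The log2 fold change was -0.43 ± 0.33 in cKO (adjusted p 0.374) and -0.63 ± 0.34 in cHet (adjusted p 0.185), with overlap in both. Once libraries of like Itgax level were compared, only 2 against 1 each time, every Pg library was below every control. The log2 ratios were -0.11 to -0.43 over the 4 comparisons. With the surrogate variable the values were -0.35 ± 0.12 (adjusted p 0.0279) in cKO and -0.46 ± 0.13 (adjusted p 0.00626) in cHet. Stab1 had 2848, 2967 and 3351 CPM in the cKO Pg libraries, against 2892, 3861 and 3752 CPM in the cKO controls, and 3821, 2632 and 2785 CPM in the cHet Pg libraries, against 3367, 4675 and 4823 CPM in the cHet controls. In both genotypes the high-Itgax control lay among the Pg libraries. At like Itgax level the log2 ratios of Pg to control means were 0.0075 at high and -0.18 at low level in cKO. In cHet they were -0.31 at either level. The log2 fold change was -0.20 ± 0.18 in cKO (adjusted p 0.461) and -0.48 ± 0.18 in cHet (adjusted p 0.07), and the cHet value was called by DESeq2 (-0.47, adjusted p 0.0109), with library-size scaling (-0.73, 0.0105), and without cHet control 1 (-0.62, 0.0189) or cHet Pg 1 (-0.66, 0.0159).

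With the surrogate variable in the fit, 7 of the 10 receptors were called with Pg in cKO, 5 higher and 2 lower, and 8 in cHet, 5 higher and 3 lower, where 41.4% of all tested genes were called in cKO and 42.5% in cHet. In both genotypes Msr1, Mrc1, Fcgr2b and Fcgr3 were higher and Marco and Stab1 lower in that fit. Mertk was higher in cKO (0.16 ± 0.06, adjusted p 0.0285) and lower in cHet, and Fcgr4 was higher in cHet (0.26 ± 0.09, adjusted p 0.0384). Leaving out the 4 libraries that stood apart gave 8 calls in cKO and 7 in cHet, against 39.6% and 42.2% of all genes, but that choice sets low-Itgax controls against high-Itgax Pg libraries, and it gave Axl a log2 fold change of 0.70 in cKO and 0.78 in cHet.

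The second comparison asked whether cKO and cHet macrophages differed in the receptors. With all 12 libraries, the filter on low counts and no covariate, no receptor passed the test of edgeR in controls, under Pg or over the mean of both treatments. In that fit 5.15%, 1.85% and 4.91% of all tested genes were called. DESeq2 called no receptor in these comparisons either. At an unadjusted p under 0.05, edgeR gave 1 receptor in controls, 1 under Pg and 0 over the mean. These were Mertk in controls, where the cKO libraries (140.3, 128 and 123 CPM) all lay below the cHet libraries (176.5, 150.3 and 167 CPM), and Fcgr1 under Pg, where the cKO libraries (177, 181 and 185 CPM) all lay below the cHet libraries (193.5, 209 and 213 CPM). The log2 difference was -0.34 ± 0.11 for Mertk (p 0.00885, adjusted p 0.106) and -0.18 ± 0.07 for Fcgr1 (p 0.0245, adjusted p 0.303). Each was the 1 receptor of 10 without overlap, against 23.5% of tested genes in controls and 17.6% under Pg. In a fit of the control libraries alone Mertk passed (-0.34, adjusted p 0.0231), as it did in controls without a filter on low counts (-0.33, 0.000289). Without cHet control 1 Msr1 passed in controls (0.54, adjusted p 0.0231, against 0.30 ± 0.18 and 0.43 with all libraries). Calls with the surrogate variable are given below.

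In controls the libraries of the same replicate number deviated together (correlations of 0.666, 0.176 and 0.188), and library 1 was the high-Itgax one in both genotypes. A fit of the control groups alone with the replicate number as a block, added after seeing the data, called 4 of the 10 receptors, where 13.6% of all genes tested in it were called. Axl (0.35, adjusted p 3.07e-05) and Msr1 (0.31, 0.000492) were higher in cKO, and Mertk (-0.34, 0.000146) and Stab1 (-0.29, 0.00013) lower. The block and the Itgax split cannot be told apart there, and with a block over all 12 libraries edgeR called 0 receptors in controls.

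**Figure D3:**
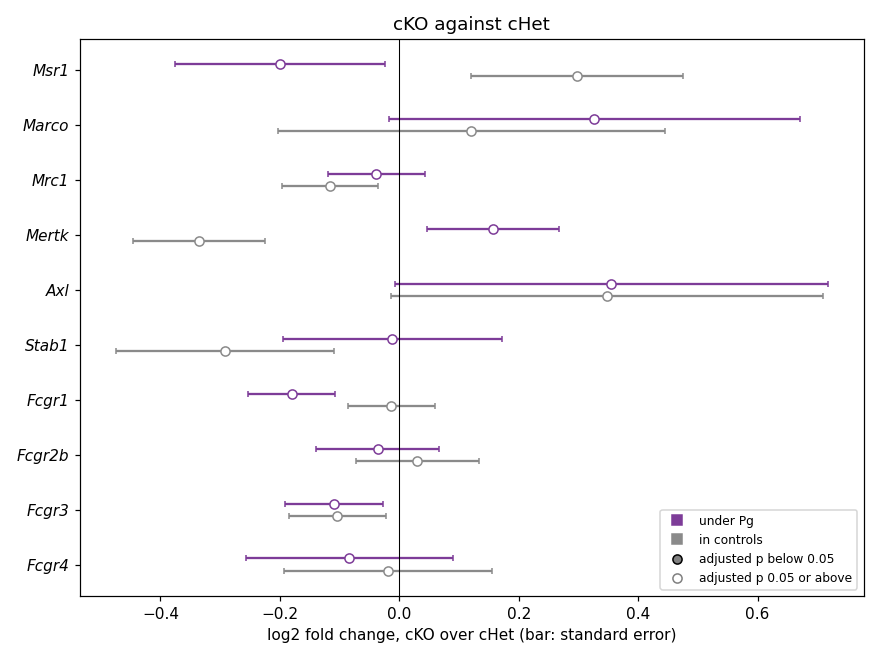
Log2 fold change of cKO over cHet (x axis) for each receptor (y axis) under Pg (purple) and in controls (grey), with the standard error as bar and filled points where the adjusted p was under 0.05. No point is filled, and the bars of Axl and Marco are the widest.

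Axl had the largest genotype difference among the receptors and the widest error. Its mean was 358 ± 78.7 CPM in cKO Pg and 280.1 ± 89.8 CPM in cHet Pg libraries, and 308 ± 104 CPM in cKO and 242 ± 85.2 CPM in cHet controls (SD, n = 3 each), a log2 difference over both treatments of 0.35 ± 0.26 with an adjusted p of 0.573. Leaving out 1 library moved it between 0.20 (without cKO control 1) and 0.52 (without cHet control 1), and the same libraries moved the difference in controls to 0.034 and 0.68, with no call. Under Pg, leaving out cHet Pg 1 gave 0.11 and cKO Pg 1 0.20. Among libraries of like Itgax level each cKO library was above each cHet library in all 4 comparisons. Those at high level in controls and at low level under Pg set 1 library against 1, which cannot overlap. The share of all tested genes with this pattern was not determined. At high level the values were 429 and 372 against 332 and 332 CPM under Pg and 428 against 340.1 CPM in controls, and at low level 274 against 176 CPM under Pg and 255 and 240.2 against 192 and 193 CPM in controls. The log2 ratios of cKO to cHet means were thus 0.27 and 0.63 under Pg and 0.33 and 0.36 in controls. With the surrogate variable the difference was 0.53 ± 0.04 over both treatments (adjusted p 8.34e-10), 0.61 ± 0.06 under Pg and 0.46 ± 0.06 in controls, and without the 4 libraries that stood apart 0.32 ± 0.04 (adjusted p 2.81e-06). The summed stromal markers differ between genotypes in the opposite direction, lower in cKO, and had no common order with Itgax level within groups. The summed dendritic cell markers, of which none was at 0, were higher in cKO at like Itgax level, as Axl was: 298.4 and 292.7 against 262.5 and 262.1 CPM and 195.5 against 148.3 CPM under Pg, and 257.8 against 209.2 CPM and 175.8 and 177.1 against 120.2 and 125 CPM in controls. Without Itgax their sum was 147.6 to 195.7 CPM in cKO Pg and 89.04 to 130 CPM in cHet Pg, and 132 to 133.3 CPM in cKO and 83.17 to 93.89 CPM in cHet controls. Most of that sum was the single gene H2-Ab1. It averaged 156 CPM in cKO Pg and 101 CPM in cHet Pg, and 124 CPM in cKO and 80.9 CPM in cHet controls. The next highest group mean among these genes was 4.25 CPM, for Siglech in cKO Pg. The part of either list in the Axl values was not tested. In bulk RNA, fewer cells of a type and less RNA per cell cannot be told apart.

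No other receptor was separated in the same direction in all 4 comparisons, of which those of 1 library against 1 cannot overlap. Marco was higher in cKO in 4 of 4 comparisons of like level, by log2 ratios of 0.09 to 0.37. It overlapped in 1 of the comparisons of 2 libraries against 2, and its surrogate-variable value was 0.08 ± 0.09 (adjusted p 0.646). Fcgr3 was lower in cKO in 4 of 4, by -0.04 to -0.23, but overlapped wherever 2 libraries stood against 2. Its surrogate-variable value over both treatments was -0.13 ± 0.04 (adjusted p 0.0494). Stab1 was lower in cKO in 3 of 4, with surrogate-variable values of -0.34 ± 0.05 in controls (adjusted p 3.25e-05) and -0.11 ± 0.05 under Pg (adjusted p 0.292). Mertk, at like level, was lower in cKO in controls (log2 ratios of -0.33 and -0.34) and higher under Pg (0.19 and 0.06), and the surrogate-variable values were -0.30 ± 0.06 in controls (adjusted p 0.000643) and 0.22 ± 0.06 under Pg (adjusted p 0.0209). For Mrc1, Fcgr2b and Fcgr4 the log2 difference over both treatments was -0.08 ± 0.06, -0.0032 ± 0.07 and -0.05 ± 0.12, and none was called in the fits with the surrogate variable.

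The difference between the responses to Pg (cKO minus cHet, the interaction term) was called for 0 of the 10 receptors by edgeR and by DESeq2, and for 0.717% of all tested genes by edgeR. Mertk was the 1 receptor with an unadjusted p under 0.05, with a log2 difference of responses of 0.49 ± 0.16 (p 0.00721, adjusted p 0.19). This value passed without cKO Pg 3, the low-Itgax library of that group (0.62, adjusted p 0.0172), without a filter on low counts (0.495, 0.000326) and with the surrogate variable (0.52 ± 0.08, 0.000141). Msr1 responded less in cKO by the point estimate, -0.50 ± 0.25 (p 0.075, adjusted p 0.464), and passed without cHet control 1 (-0.75, adjusted p 0.0471). Without the 4 libraries that stood apart, edgeR called Msr1 (-0.67, adjusted p 6.69e-06), Mertk (0.54, 0.000131), Stab1 (0.43, 7.26e-05) and Fcgr1 (-0.30, 0.0293). That fit sets low-Itgax controls against high-Itgax Pg libraries, and its p-values are too small. The interaction and both genotype comparisons use the same libraries and are tied by construction.

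Spread within groups differed widely between the receptors and followed the Itgax split for most of them. The SD of log2 CPM around the group means, pooled over the 4 groups, was 0.45 for Axl and 0.43 for Marco, against a median of 0.17 over all tested genes. For Stab1, Fcgr4 and Msr1 it lay between 0.23 and 0.24, for Mertk and Fcgr2b it was 0.16 and 0.15, and for Fcgr3, Mrc1 and Fcgr1 between 0.09 and 0.11. Each receptor had at least 181 counts in every library, and Axl at least 2510. Among the 1154 tested genes within 1 log2 unit of its mean level, Axl was more variable than 99.65%, where the median SD was 0.08, while Fcgr1 stood above 58.55% of its 1713.

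**Figure D4:**
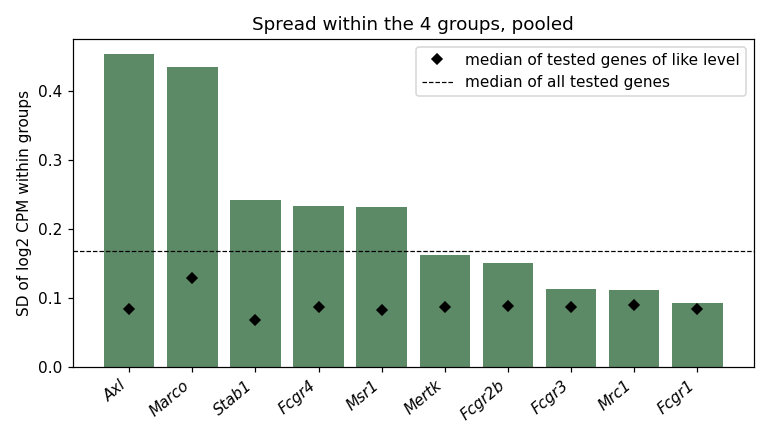
SD of log2 CPM within groups, pooled over the 4 groups (y axis, from 0), for each receptor in falling order (x axis), with diamonds for the median of tested genes of like level and a dashed line for the median of all tested genes (0.17). Axl and Marco stand above 0.4, and Fcgr1 is near its diamond.

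In every group the high-Itgax libraries lay above the low-Itgax ones for Axl, Mertk, Fcgr2b and Fcgr4, and below them for Marco and Stab1. This made 6 of the 10 receptors ordered the same way in 4 of 4 groups, compared with 17.7% of the tested genes (9.16% above and 8.51% below). Msr1 was above in 3 groups, the exception being cKO Pg, and Fcgr3 below in 3. Axl deviated from its group mean by 0.53 log2 units in cKO control 1 and 0.55 in cHet control 1, and by -0.36 in cKO Pg 3 and -0.61 in cHet Pg 1. Marco deviated in the opposite direction in the same libraries, by -0.37, -0.45, 0.55 and 0.47. The split was chosen on Itgax and Cd36 from the same libraries, so these orders are descriptions. What sets the libraries apart is not given in the labels.

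**Figure D5:**
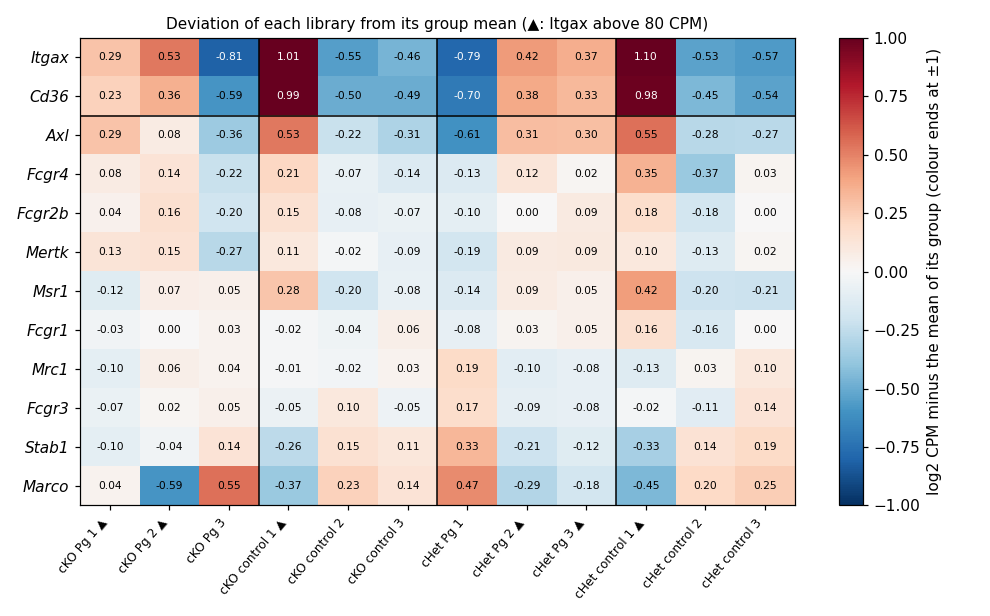
Log2 CPM minus the mean of the group (colour and printed value) for Itgax, Cd36 and the 10 receptors (rows) in the 12 libraries (columns, by group), with a triangle after the name of libraries with Itgax above 80 CPM. Axl, Fcgr4, Fcgr2b and Mertk share the sign of Itgax in most libraries, and Stab1 and Marco have the opposite sign in most.

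By distance between profiles over the 12 libraries, each centred on its own mean, no receptor had another of the 10 among its 2 nearest genes. Nearest to Msr1 were Ifi211, an interferon-inducible gene, and Phldb1, at root mean square distances of 0.09 and 0.11 log2 units, against an SD of 0.58 for the Msr1 profile itself. Fam83f and Tmem150a were nearest to Axl, at 0.14 and 0.16 against an SD of 0.45. The nearest gene of Mertk was the Wnt co-receptor gene Lrp5 (0.08), that of Fcgr2b the ceramide synthase gene Cers2 (0.05), that of Fcgr1 the MHC class I gene H2-K1 (0.06) and that of Stab1 Arhgap22 (0.08). Of the remaining receptors, Mrc1 was nearest to Twf1 (0.05), Fcgr3 to Tecr (0.05), Fcgr4 to Syn1 (0.08) and Marco to Gm44154 (0.18).

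The other genes of these pathways were read from lists. Of 15 tested genes among 18 other scavenger receptors, 2 were higher and 1 lower with Pg in cKO, and 1 was higher and 1 lower in cHet. Of all tested genes, 34% were called in either direction in cKO and 36.1% in cHet. Olr1, the lectin-like receptor for oxidised LDL, averaged 197 ± 33.5 CPM in cKO Pg against 28.1 ± 11.98 CPM in cKO controls and 191 ± 43.8 CPM in cHet Pg against 21.3 ± 11.5 CPM in cHet controls (SD, n = 3 each), log2 fold changes of 2.81 ± 0.41 (adjusted p 0.000895) and 3.15 ± 0.42 (0.000488). Scarb2, a lysosomal membrane protein, was lower in both genotypes, by a log2 fold change of -0.18 ± 0.05 in cKO (adjusted p 0.0117) and -0.25 ± 0.05 in cHet (0.00116). Cd36, the receptor that marks the library split, gave 0.63 ± 0.59 in cKO and 0.86 ± 0.59 in cHet, with no call.

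In the efferocytosis list of ligands, partners and engulfment machinery, 23 of 27 genes were tested. With Pg, 5 were higher and 1 lower in cKO, and 6 were higher and 3 lower in cHet. The share called among all tested genes was 34% in cKO and 36.1% in cHet. Itgav, the alpha V integrin chain that binds the bridging protein MFG-E8, was higher by 1.30 ± 0.11 log2 units in cKO (adjusted p 3.04e-07) and 1.54 ± 0.11 in cHet (4.45e-08). Thbs1, a thrombospondin that links dying cells to CD36 and alpha V integrin, was higher by 1.96 ± 0.18 in cKO and 1.78 ± 0.18 in cHet (adjusted p 1.68e-05 and 3.16e-05). Abca1, the cholesterol exporter induced by ingested lipid, was higher by 0.51 ± 0.06 in cKO (3.19e-06) and 0.59 ± 0.06 in cHet (5.64e-07), and the phosphatidylserine receptor gene Cd300lf was lower by a log2 fold change of -1.01 ± 0.09 in cKO (1.32e-07) and -0.78 ± 0.09 in cHet (2.47e-06). Gas6, the ligand of Axl and Mertk, singled out after its values were seen, was called lower in cHet (-0.32 ± 0.10, adjusted p 0.0245, with overlapping libraries) and was -0.05 ± 0.10 in cKO (0.748). Tyro3, the remaining kinase of the Mertk and Axl family, was below the filter on low counts.

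Fc receptor chains, signalling and IgG handling held 20 tested genes of 22, with 5 higher and 5 lower in cKO, and 5 higher and 3 lower in cHet. Among all tested genes 34% were called in cKO and 36.1% in cHet. Syk and Lyn, kinases that act below activating Fc receptors, were among those higher with Pg: Syk by 0.41 ± 0.06 in cKO (adjusted p 1.75e-05) and 0.44 ± 0.06 in cHet (8.1e-06), and Lyn by 0.49 ± 0.06 (1.24e-05) and 0.45 ± 0.06 (2.82e-05). Not every kinase of the list rose. Pik3cd was lower in cHet (-0.49 ± 0.07, adjusted p 5.84e-05) and averaged 152 CPM in cKO Pg and 163 CPM in cKO controls. Trim21, the cytosolic IgG receptor, was lower by -1.35 ± 0.10 in cKO (adjusted p 9.39e-09) and -0.59 ± 0.10 in cHet (0.000113). The gamma chain gene Fcer1g, singled out after its values were seen, was 0.13 ± 0.06 in cKO (adjusted p 0.0805) and was called higher in cHet, by 0.28 ± 0.06 (0.000908).

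Between genotypes, 5 of the 15 tested scavenger receptors of the list were lower in cKO in controls, where 3.02% of all tested genes were. Under Pg 2 were lower, and 4 over the mean of both treatments. In either direction, 5.15% of all tested genes were called in controls, 1.85% under Pg and 4.91% over the mean. Cd5l, a secreted scavenger protein of macrophages, averaged 125 ± 5.25 CPM in cKO Pg and 236 ± 17.1 CPM in cHet Pg, and 143 ± 18.1 CPM in cKO and 248 ± 8.42 CPM in cHet controls (SD, n = 3 each), a mean log2 difference of -0.85 ± 0.06 (adjusted p 2.62e-08). Colec12, a scavenger receptor with a collagen-like domain, gave -0.70 ± 0.12 (adjusted p 0.00118), the HDL receptor gene Scarb1 -0.36 ± 0.06 (0.00224) and Lrp1, the endocytic LDL receptor-related protein, -0.31 ± 0.06 (0.00312). Stab2, the paralog of Stab1, was lower in cKO in controls (-0.96 ± 0.22, adjusted p 0.0294). The stromal markers given above are lower in cKO as well, and their part in these values was not tested. Timd4, a phosphatidylserine receptor, was at 0.16 ± 0.10 CPM in cKO Pg and 1.52 ± 0.56 CPM in cHet Pg (SD, n = 3 each), and its log2 difference was -3.18 ± 0.56 (adjusted p 0.00339). It was 1 of 2 efferocytosis genes called under Pg, of which 1 was higher and 1 lower. Of the 20 tested genes of Fc receptor signalling, 2 were higher and 1 lower in controls, and 1, Src, was lower under Pg (-0.64, adjusted p 0.000602).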

How the data were processed

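The 12 poly(A) RNA libraries of macrophages were analysed from gene counts that the authors deposited as 1 table of unnormalised reads per gene. The submitters' processing notes name featureCounts 1.5.0-p3, HISAT2 2.0.5, fastp and the mm10 build. For strand and multiply mapped reads, the setting is not given in the sources used here. The table's gene length and position columns, as deposited, scaled levels per kilobase. Samples were grouped by the labels. Genes were filtered with filterByExpr, TMM-scaled and fitted by edgeR 4.0.16 (R 4.3.3) with a robust quasi-likelihood model over 4 group means. The 6 contrasts were adjusted by Benjamini-Hochberg over 13800 genes at 0.05. Standard errors are the log2 fold change divided by the square root of F. Alternatives were library-size and RLE scaling, no filter, a replicate block, fits of the compared groups alone, DESeq2 1.42.0 and leaving out each library. A surrogate variable (sva 3.50.0), the fit without 4 libraries and the comparison at like Itgax level were added after seeing the data. The members and lists were chosen with earlier results of these data known. All 10 receptors are described, and in each other pathway list up to 4 called genes with the smallest p per comparison, filled up by mean expression, could be named, with the 2 genes nearest in profile to each receptor. Genes singled out otherwise are marked. Promoters came from RefSeq, transcripts from GENCODE M21. The fitting was tested on simulated data. Replicate numbers did not pair the libraries over all groups (2 of 12 matched their own number best). Same-numbered libraries of the control groups deviated together, so a block fit of these alone was added. Library 1 was the high-Itgax one in both control groups, so pairing by number was not shown there either.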

Additional observations from a re-analysis of the deposited data

Results flagged for a closer look

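The Pg response differed between genotypes in 4 listed genes by the interaction test of edgeR, none of them among the 10 receptors. Trim21, the cytosolic IgG receptor, was lower with Pg by more in cKO, with a log2 difference of responses (cKO minus cHet) of -0.76 ± 0.14 (adjusted p 0.0116). Src, a kinase below Fc receptors, gave -0.63 ± 0.13 (adjusted p 0.0333), with Pg responses of 0.21 in cKO (adjusted p 0.106) and 0.84 in cHet (1.89e-06). Cblb, a ubiquitin ligase that restrains receptor signalling, gave -0.63 ± 0.14 (adjusted p 0.047), with responses of -0.57 in cKO (0.000262) and 0.06 in cHet (0.68). Il1b, of the genes that check the Pg label, gave 0.61 ± 0.12 (adjusted p 0.0213), with responses of 3.63 in cKO and 3.02 in cHet. Its mean was 1525 CPM in cKO Pg and 1485 CPM in cHet Pg, and 124 CPM in cKO and 184 CPM in cHet controls. The genotypes thus differed more in controls than with Pg.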

How the results depend on the processing

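The Msr1 response to Pg passed the test under every alternative run, and RLE scaling changed no call. Of 950 receptor values under alternatives, 871 kept their direction and side of the threshold or changed sign without a call (70), 13 lost a call, 65 gained one and 1 was reversed: Mrc1 in cHet under library-size scaling (-0.026). Calls of receptors in controls went to 1 without a filter on low counts and to 1 with the compared groups alone, and the interaction to 1 without a filter, all for Mertk. Without a filter, 1101 genes were called between genotypes in controls, 507 under Pg, 1102 over both treatments and 389 for the interaction, against 711, 255, 677 and 99. DESeq2 called 262 genes for the interaction. With the surrogate variable, receptor calls were 7 for Pg in cKO, 8 in cHet, 3 between genotypes in controls, 2 under Pg, 3 over both and 1 for the interaction, and gene calls 5711 for Pg in cKO, 5864 in cHet, 1683 between genotypes in controls, 853 under Pg, 1458 over both and 786 for the interaction. Without the 4 libraries that stood apart, the same receptor calls were 8, 7, 5, 4, 1 and 4, and gene calls 5488, 5851, 1422, 771, 1181 and 868. The cause was not tested. These p-values are too small, since the variable and the libraries were chosen from the same counts.

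Leaving out each library in turn gave 2 to 4 receptor calls for Pg in cKO, 3 to 5 in cHet, 0 to 1 between genotypes in controls, 0 to 0 under Pg and over both treatments, and 0 to 1 for the interaction. Gene calls ranged over 3838 to 4460, 4102 to 4689, 319 to 591, 153 to 259, 499 to 715 and 42 to 207 in the same comparisons. Beside the calls named in the results, leaving out cHet control 1 added Fcgr1 (0.25) and Fcgr4 (0.54) with Pg in cHet, leaving out cHet control 3 added Fcgr3 (0.24), and leaving out cKO Pg 3 added Mertk with Pg in cKO (0.33).

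With the replicate block over all libraries the Mrc1 call in cHet was lost (0.22, adjusted p 0.0621), leaving 2 receptor calls there. No other receptor call changed, and gene calls were 4448 and 4723 for Pg in cKO and cHet and 549, 220, 581 and 70 in the genotype and interaction comparisons. Same-numbered libraries deviated together with correlations of -0.55 to 0.67, so the numbers do not pair the samples over all groups. Every correlation was over 0.1 only between the control groups, where the block in a fit of these groups alone gave 4 receptor calls and 1798 gene calls. Library 1 was the high-Itgax one in both control groups, so these correlations do not show pairing by number. Each group has 3 libraries to estimate the spread from.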
